A study of Mus musculus with 70 samples.

Results

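The genes described here are 9 components of type I interferon signalling: the receptor chains Ifnar1 and Ifnar2, the signal carriers Stat2 and Irf9, the transcription factors Irf7, Irf1, Irf3 and Irf5, and the feedback inhibitor Socs1. They were found by gene symbol, 9 of the 25806 gene IDs present in at least 1 of the 5 count tables, and each table held all 9. Whether microglia with a tamoxifen-inducible Cre in the Cx3cr1 locus changed their expression was compared across 70 CEL-Seq2 libraries (a 3' tag method with molecular identifiers) in 17 groups, each library made from 500 sorted CD11b+ CD45+ Ly6G- CD206- brain cells.

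In the vehicle and UC2288 table (pups, Littman line), tamoxifen with UC2288 was given to Cx3cr1CreERT2(Litt) heterozygous pups (5 libraries, called UC2288 Cre+) and to Cx3cr1+/+ pups (3 libraries, UC2288 Cre-), UC2288 being labelled as an inhibitor of CDKN1A and dosed at 100 mg per kg. Tamoxifen with vehicle was given to Cre+ pups (4 libraries) and Cre- pups (5 libraries), and oil with vehicle to Cre+ pups (4 libraries). In the postnatal table, Littman Cre+ and Cre- pups (5 libraries each) both received tamoxifen, while pups heterozygous for Cx3cr1CreERT2(Jung) and Rosa26YFP received tamoxifen (4 libraries) or oil (5 libraries). Pups were taken at 8 or 14 days, and neither that age nor the tamoxifen schedule (0.1 mg at days 1 and 3, or 0.2 mg at days 5 and 7) is tied to a library by the labels. The adult tables (mice of 6 to 15 weeks, 4 mg tamoxifen injected on 2 occasions) hold heterozygous mice: Littman with tamoxifen (3 libraries) or oil (4), Jung with tamoxifen (4) or oil (4), BLZ-titled Littman with tamoxifen (4) or oil (3), and BLZ-titled Jung, also heterozygous for Rosa26YFP, with tamoxifen (4) or oil (4). BLZ945, an inhibitor of the Csf1 receptor, appears in the treatment labels of BLZ-titled Littman mice and of Jung mice with adult titles, but not of BLZ-titled Jung mice; groups were taken from the titles, and this conflict is unresolved. In every Cre+ mouse Cre replaces 1 Cx3cr1 allele, and Cx3cr1 drives it in microglia and in other myeloid cells. No label says that replicates were separate animals, so p-values measure the spread between these libraries.

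Type I interferons bind a receptor made of Ifnar1 and Ifnar2, and the kinases Jak1 and Tyk2 then phosphorylate Stat2. Stat2 and Irf9 are subunits of the complex ISGF3, which binds interferon-stimulated response elements (ISRE), whereas the response to interferon gamma runs through gamma-activated sites (GAS). Irf3 and Irf7 switch on interferon genes after nucleic acid sensing, Irf5 acts downstream of Toll-like receptors, Irf1 is induced through GAS elements, and Socs1 binds Jak kinases and ends the signal. In brain, microglia respond to interferon with large changes of these target genes.

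Promoter sequences are shown for Stat2 and Irf7, which changed in most of the comparisons below that had any call, and for Irf1 and Socs1, which hold the GAS core and the ISRE core. They come from RefSeq (GRCm38.p6; all 9 genes matched), are written 5' to 3' on the gene's own strand (plus for Stat2 and Irf1, minus for Irf7 and Socs1), and end before the first annotated base of the gene (the Irf7 window is shorter for that reason); capitals mark motif matches.
Stat2 chr10:128270248-128270497: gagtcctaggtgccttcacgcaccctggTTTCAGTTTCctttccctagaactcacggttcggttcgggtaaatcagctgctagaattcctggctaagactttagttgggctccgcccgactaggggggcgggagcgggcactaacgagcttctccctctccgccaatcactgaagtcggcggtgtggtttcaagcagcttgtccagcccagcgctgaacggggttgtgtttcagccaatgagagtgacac
Irf7 chr7:141266482-141266674: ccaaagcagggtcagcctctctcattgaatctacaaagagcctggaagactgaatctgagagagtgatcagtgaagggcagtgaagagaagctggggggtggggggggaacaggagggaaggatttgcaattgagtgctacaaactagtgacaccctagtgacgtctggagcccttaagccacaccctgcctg
Irf1 chr11:53769764-53770013: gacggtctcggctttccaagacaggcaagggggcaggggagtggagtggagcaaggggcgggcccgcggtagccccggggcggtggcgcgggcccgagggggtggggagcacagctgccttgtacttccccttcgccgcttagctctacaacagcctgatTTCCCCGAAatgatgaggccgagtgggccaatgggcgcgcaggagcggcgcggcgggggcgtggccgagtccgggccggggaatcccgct
Socs1 chr16:10785537-10785786: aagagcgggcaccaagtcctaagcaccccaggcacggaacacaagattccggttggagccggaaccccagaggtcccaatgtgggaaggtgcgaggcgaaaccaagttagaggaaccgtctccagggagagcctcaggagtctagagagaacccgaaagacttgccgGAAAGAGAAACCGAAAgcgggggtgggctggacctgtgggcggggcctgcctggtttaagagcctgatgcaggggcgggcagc
The ISRE core searched was GAAA, any 2 bases and GAAA again, on both strands, and the GAS core TTCNNNGAA, which reads the same on both. Over the 250 bases before each RefSeq start, 3.46% of 27025 genes held the ISRE core and 8.13% held the GAS core. Among the 9 genes, Stat2 held 1 ISRE core, Socs1 held 2 that overlap each other, and Irf1 and Ifnar2 held 1 GAS core each. No match lay in these windows of Irf7, Irf9, Ifnar1, Irf3 or Irf5, which says nothing of sites elsewhere.

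Depth was lowest in vehicle and UC2288 pups, whose libraries held 116083 to 277680 counts, followed by BLZ-titled adults (184513 to 236106). Adult Jung libraries held 274120 to 304794 counts, adult Littman libraries 288396 to 347941, and those of the remaining pups 329329 to 450461. Levels below are CPM, a gene's count scaled by its library's total in the usual way, so 1 count was worth 3.6 to 8.61 CPM in the vehicle and UC2288 table. A gene was called where edgeR's adjusted p over all tested genes of its table was below 0.05. Socs1 passed the low-count filter in no table, and Irf7 passed it only in the vehicle and UC2288 table and the BLZ-titled table, through the groups in which it is high. All 8 microglia markers, Cx3cr1 included, were detected in every group. Cx3cr1, of which a Cre allele removes a copy, had 842 to 1116 CPM in vehicle tamoxifen Cre+ libraries against 2237 to 2919 CPM in the Cre- ones. The UC2288 Cre+ library labelled replicate 3 stood apart: its Cx3cr1 was 1803 CPM against 651 to 917 CPM in the other 4 libraries, and its summed microglia markers were 16628 CPM against a group median of 7082 CPM; results of that group are given with and without it.

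**Figure D1:**
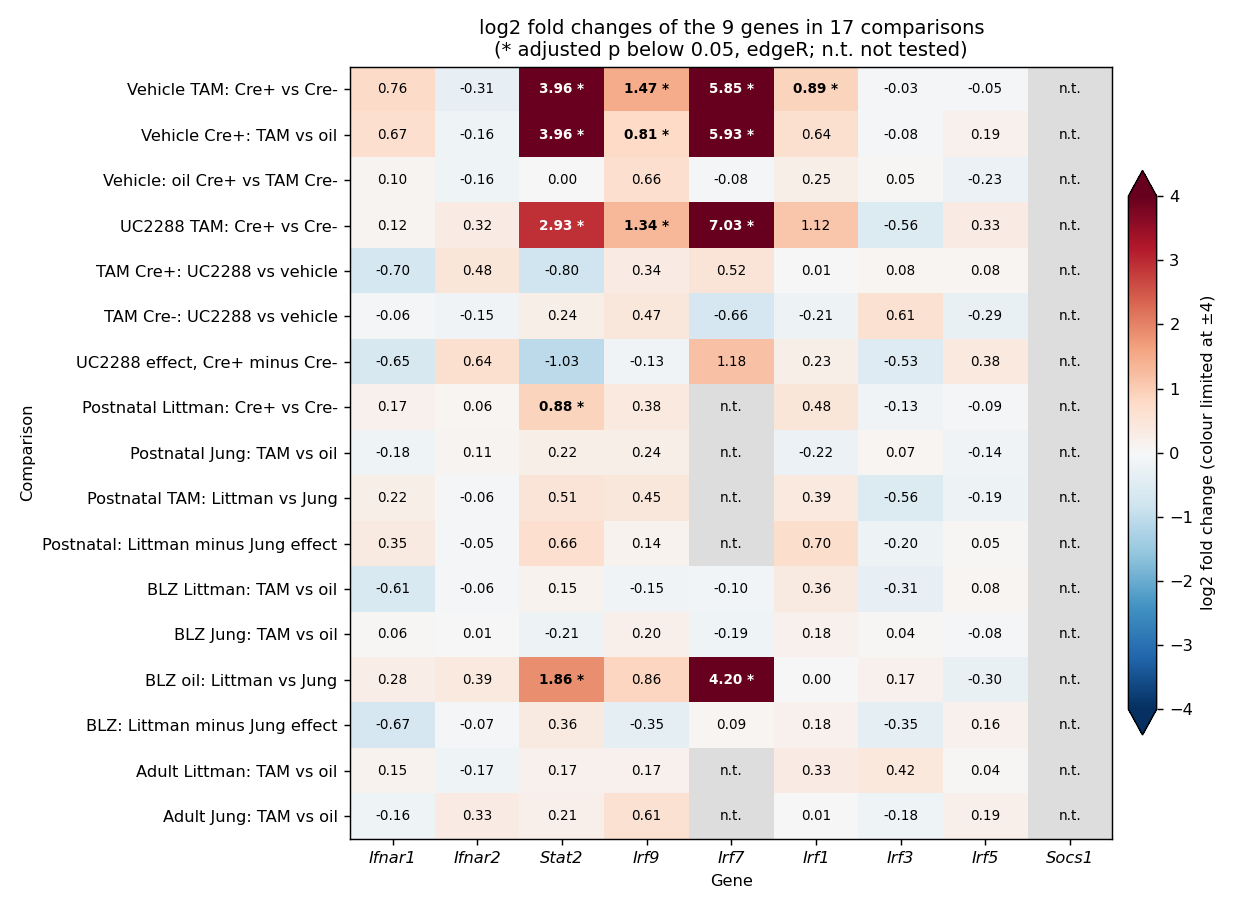
Fitted log2 fold changes of the 9 genes (columns) in 17 comparisons (rows), with the group named first over the group named second; an asterisk marks an adjusted p below 0.05 (edgeR) and grey a gene that was not tested. Calls fall on Stat2, Irf7, Irf9 and Irf1 alone, and every called value is positive.

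In vehicle-treated pups with tamoxifen, Cre+ microglia had far more Irf7, Stat2 and Irf9 RNA than Cre- microglia, while Irf3 and Irf5 differed by less than their errors. Of the 8 tested genes, 4 were called, all higher (Irf7, Stat2, Irf9 and Irf1), in a comparison in which 27.2% of 4953 tested genes were called and 14.3% were called higher. The median log2 fold change of the 8 tested genes was 0.83 and that of all tested genes -0.01; since Irf7 entered the test through its high groups, neither figure describes all 9.

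Irf7 (chr7:141262706-141266481), the factor that amplifies interferon production, had 211, 315, 256 and 165 CPM in the Cre+ libraries, against 6, 0, 4.48, 0 and 4.66 CPM in the Cre- libraries. Every Cre+ library was above every Cre- library, which together held 222 and 3 Irf7 counts. The ratio of the pooled counts per library total was 80.2 (exact 95% interval 27.1 to 392, counting error only), and edgeR gave an adjusted p of 5.87e-11.

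Stat2 (chr10:128270559-128292849), the ISGF3 subunit that anchors Irf9, had 248, 243, 266 and 290 CPM in Cre+ libraries against 18, 14, 8.96, 11.5 and 18.6 CPM in Cre- libraries. The Cre+ libraries lay close together and far above the others. The log2 fold change was 3.96 ± 0.35 (SE), a 15.6-fold difference, with an edgeR adjusted p of 7.85e-11. Irf9 (chr14:55603571-55610030), the DNA-binding subunit of ISGF3, had 92.6, 113, 115 and 124 CPM in Cre+ libraries against 54, 32.8, 31.4, 40.4 and 18.6 CPM in Cre- libraries. Its groups did not overlap either, but the change was smaller, 1.47 ± 0.29 on the log2 scale (2.77-fold, edgeR adjusted p = 0.000327).

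Irf1 (chr11:53770014-53778374) had 63, 72, 75.6 and 75.8 CPM in Cre+ libraries against 48, 37.4, 26.9, 23.1 and 32.6 CPM in Cre- libraries. All Cre+ values were above all Cre- values, and the log2 fold change was 0.89 ± 0.34 (edgeR adjusted p = 0.0458). This call is near the threshold: it was lost in 8 of the 9 fits that left out 1 library (adjusted p up to 0.109), with DESeq2 (adjusted p = 0.0722) and without the low-count filter (adjusted p = 0.182).

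Of the receptor chains, Ifnar1 (chr16:91485238-91507441) had 96.3, 108, 93.6 and 103 CPM in Cre+ libraries against 42, 18.7, 67.2, 75 and 55.9 CPM in Cre- libraries. The groups were apart, but the log2 fold change of 0.76 ± 0.33 did not pass (edgeR adjusted p = 0.0800). It passed with column totals as the scale (0.98, adjusted p = 0.0279) and with the 2 groups fitted alone (adjusted p = 0.0354). On column totals the median of all genes was higher too, at 0.21 against -0.01 with TMM. For Ifnar2 (chr16:91372783-91405589) the log2 fold change was -0.31 ± 0.31 (edgeR adjusted p = 0.479), with 49.5 to 104 CPM in Cre+ libraries overlapping 46.6 to 126.4 CPM in Cre- libraries. Whether the 2 chains differed in their change was not tested.

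Irf3 (chr7:44997648-45002848), which is held ready in the cytoplasm for sensing of nucleic acids, had a log2 fold change of -0.03 ± 0.36. Irf5 (chr6:29526625-29541871) had one of -0.05 ± 0.23, and the Cre+ and Cre- libraries of both genes overlapped. Their 95% intervals ran from -0.73 to 0.67 for Irf3 and from -0.50 to 0.41 for Irf5 on the log2 scale, so changes inside these bounds cannot be seen here. Counts of Irf5 may include its antisense neighbour Tnpo3, which shares 411 bases near the 3' end, because the strand setting of the counting is not given. The same limit holds for 45 bases that Irf7 shares with Phrf1.

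Socs1 (chr16:10782240-10785536) was too low to test. It had 29.6, 22.5, 28.8 and 13.8 CPM (8, 5, 8 and 2 counts) in Cre+ libraries against 6, 4.68, 0, 5.77 and 4.66 CPM (at most 1 count each) in Cre- libraries. The groups did not overlap, and without the filter the log2 fold change was 2.23 ± 0.77 with an edgeR adjusted p of 0.0577.

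**Figure D2:**
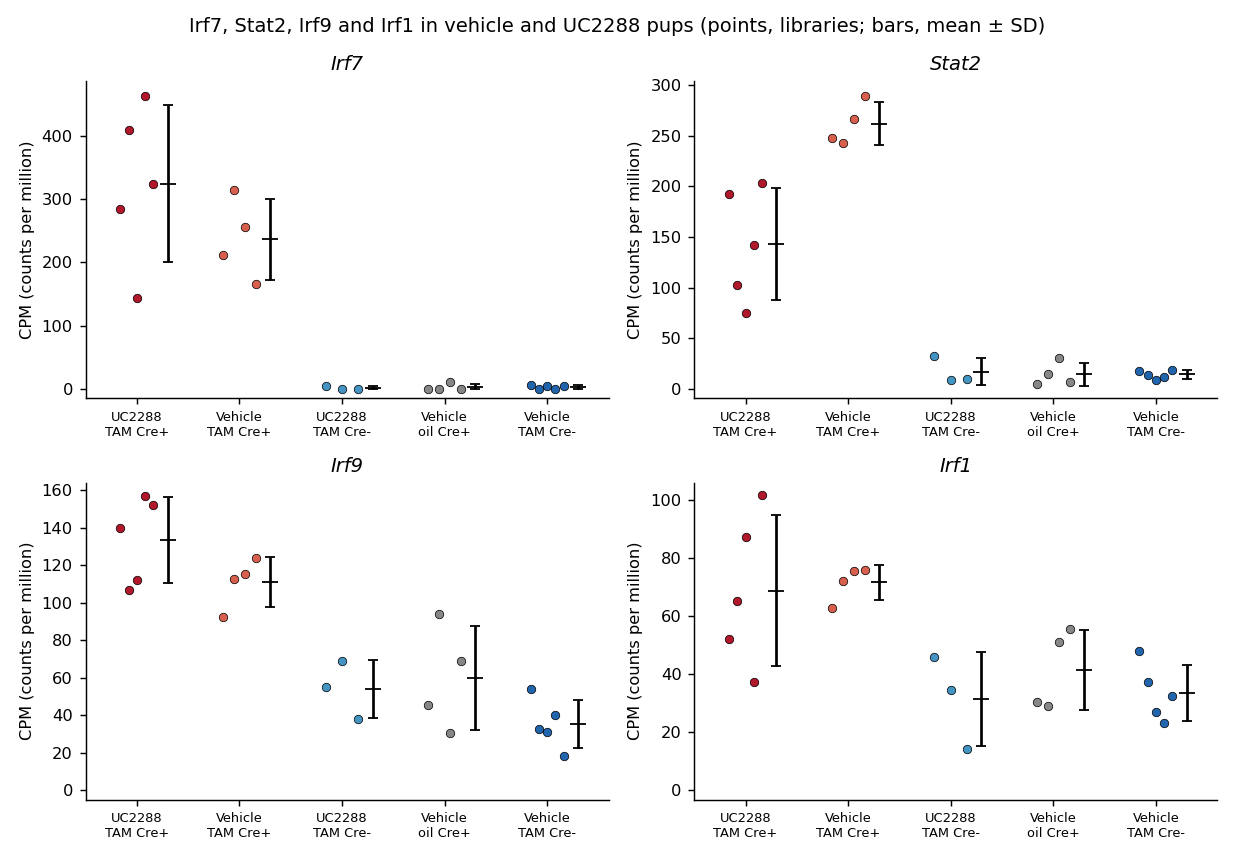
CPM of Irf7, Stat2, Irf9 and Irf1 by library in the 5 groups of vehicle and UC2288 pups; points are libraries and bars the mean and SD, drawn no lower than 0. Irf7 lies between 144 and 464 CPM in the 9 tamoxifen Cre+ libraries and at 10.2 CPM or less in the other 12, and Stat2 between 74.9 and 290 CPM against 32.3 CPM or less.

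Tamoxifen and oil were also compared within the Cre+ genotype. Tamoxifen both activates Cre and is a drug of its own, and the 2 cannot be told apart in this comparison. Tamoxifen libraries were again higher in Irf7, Stat2 and Irf9, 3 of the 8 tested genes, where 31.4% of all tested genes were called and 16.1% called higher. The tamoxifen Cre+ libraries are the same as above, so this is not a second, independent set. Irf7 had 211, 315, 256 and 165 CPM with tamoxifen against 0, 0, 10.2 and 0 CPM with oil. The pooled ratio of 222 to 2 counts was 82.0 (exact 95% interval 22.4 to 682, counting error only; edgeR adjusted p = 1.17e-09). Stat2 had 248, 243, 266 and 290 CPM with tamoxifen against 5.06, 14.5, 30.6 and 6.93 CPM with oil, and its log2 fold change was 3.96 ± 0.39 (edgeR adjusted p = 1.36e-09). Oil replicate 3 held both oil counts of Irf7 and the highest oil value of Stat2; without it Irf7 was at 0 with oil and the Stat2 change was 4.74, against a lowest value of 3.62 over the fits without 1 library, all of which called both genes. Irf9 had 92.6, 113, 115 and 124 CPM with tamoxifen against 45.5, 94.2, 30.6 and 69.3 CPM with oil, 1 library of which reached into the tamoxifen range. Its log2 fold change of 0.81 ± 0.30 (edgeR adjusted p = 0.0365) was not called in 5 of 8 fits without 1 library, nor with DESeq2 (adjusted p = 0.0567), nor without the filter (adjusted p = 0.145).

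Irf1 stayed short of the threshold against oil, at 0.64 ± 0.36 on the log2 scale (edgeR adjusted p = 0.168), although its tamoxifen libraries lay above its oil libraries, which had 30.4, 29, 51 and 55.4 CPM. Ifnar1 had 55.6, 94.2, 71.4 and 6.93 CPM with oil, and the difference of 0.67 ± 0.35 did not pass (edgeR adjusted p = 0.148). Ifnar2, Irf3 and Irf5 had log2 fold changes of -0.16 ± 0.34, -0.08 ± 0.38 and 0.19 ± 0.25, and Socs1 had at most 2 counts in an oil library.

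Between oil Cre+ and tamoxifen Cre- pups edgeR called none of the 8 tested genes and 0% of all tested genes; DESeq2 called 0 of the 8, none of the 8 had an unadjusted p below 0.05, and over all genes 290 did. Stat2 differed by -0.00 ± 0.64 and Irf7 rested on 2 counts with oil and 3 in Cre- libraries. The largest value was that of Irf9, 0.66 ± 0.34 on the log2 scale (edgeR adjusted p = 0.853). These groups differ in genotype and in tamoxifen, and differences between them were not detectable at this depth, with a 95% interval as wide as -2.41 to 2.24 on the log2 scale for Irf7.

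**Figure D3:**
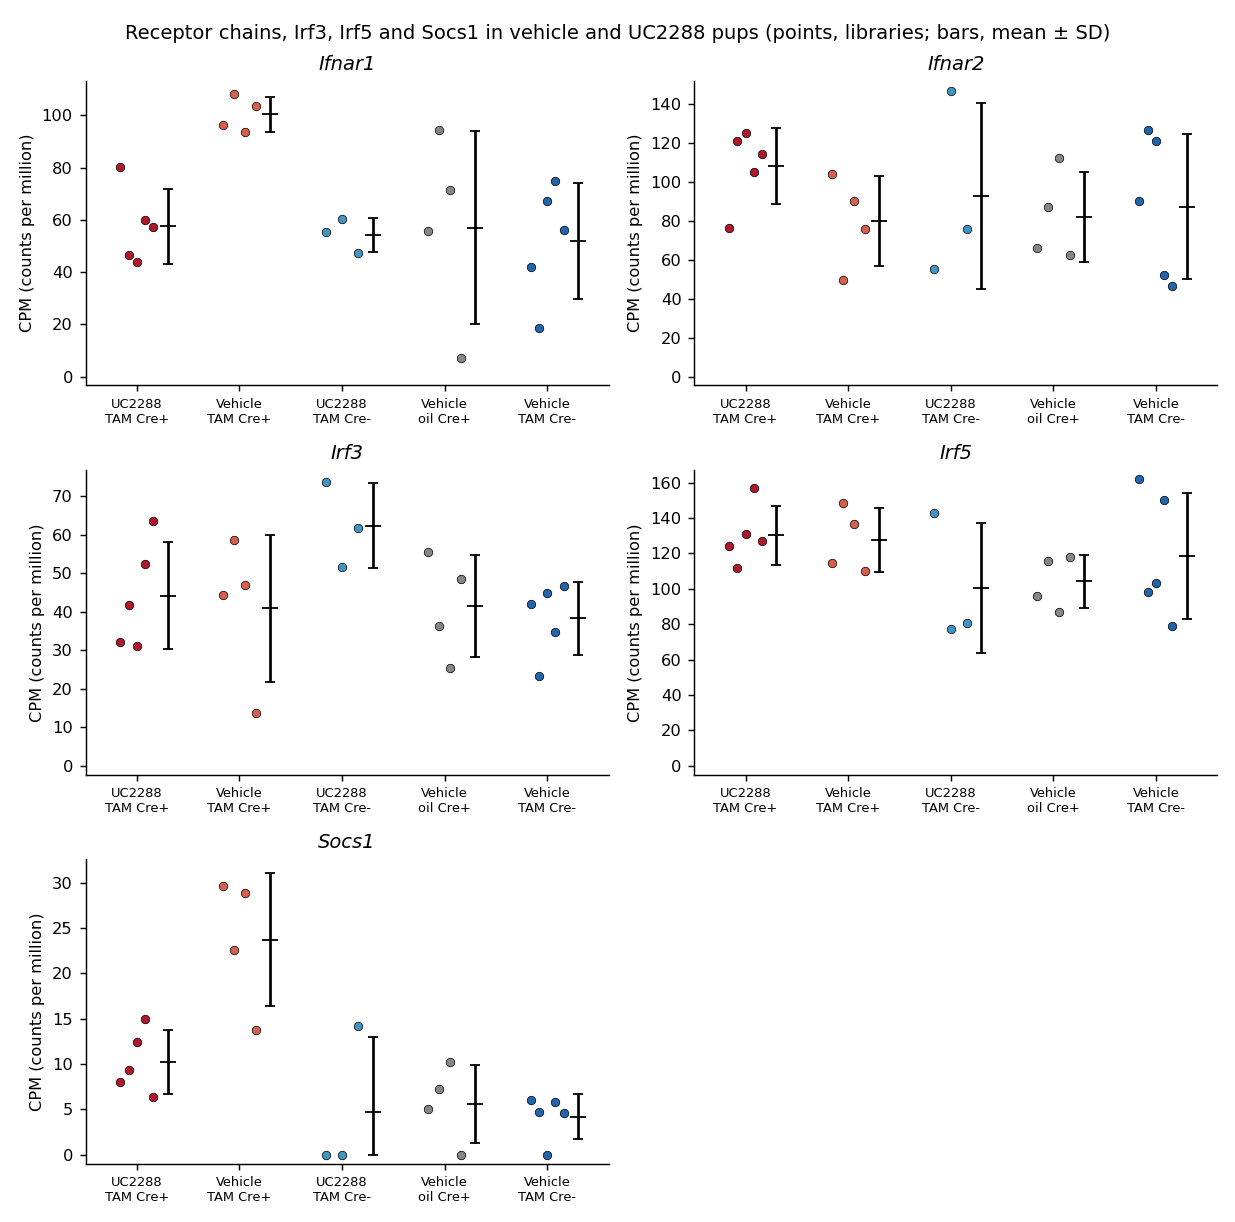
CPM of Ifnar1, Ifnar2, Irf3, Irf5 and Socs1 by library in the same 5 groups; points are libraries and bars the mean and SD, drawn no lower than 0. Ifnar1 is between 93.6 and 108 CPM in vehicle tamoxifen Cre+ libraries and between 43.7 and 80.1 CPM in UC2288 Cre+ libraries, while Irf3 and Irf5 overlap between Cre+ and Cre- libraries of the vehicle arm.

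With UC2288, the Cre+ to Cre- comparison again gave 3 calls among the 8 tested genes, all higher (Irf7, Stat2 and Irf9), where 4% of all tested genes were called and 3.51% called higher. Irf7 had 284, 409, 144, 464 and 324 CPM in UC2288 Cre+ libraries against 4.61, 0 and 0 CPM in UC2288 Cre- libraries. All Cre+ libraries were far above, and the pooled ratio of 295 to 1 counts was 175 (exact 95% interval 31.2 to 6941, counting error only; edgeR adjusted p = 1.37e-09). Stat2 had 192, 102, 74.9, 142 and 203 CPM in UC2288 Cre+ libraries against 32.3, 8.61 and 9.48 CPM in UC2288 Cre- libraries, a log2 fold change of 2.93 ± 0.42 (edgeR adjusted p = 4.92e-06). UC2288 Cre- replicate 1 held the single Irf7 count and the highest Stat2 value of its group; without it Irf7 was at 0 in that group and the Stat2 change was 3.82, against a lowest value of 2.64 over the fits without 1 library, all of which called Stat2. Irf9 had 140, 107.02, 112, 157 and 152 CPM in UC2288 Cre+ libraries against 55.3, 68.9 and 37.9 CPM in UC2288 Cre- libraries, a log2 fold change of 1.34 ± 0.32 (edgeR adjusted p = 0.00641). Neither gene's groups overlapped. Without the library that stood apart the values for Stat2 and Irf9 were 3.06 (edgeR adjusted p = 8.03e-07) and 1.37 (edgeR adjusted p = 0.00548), and Irf7 stayed called; without UC2288 Cre- replicate 3 Irf9 was no longer called (1.19, adjusted p = 0.0594). Irf1 was at 1.12 ± 0.40 and not called (edgeR adjusted p = 0.142).

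The direct effect of UC2288 in tamoxifen Cre+ pups was measured against vehicle tamoxifen Cre+ pups. None of the 8 genes was called by edgeR or DESeq2, 2 had an unadjusted p below 0.05, and 0.727% of all genes were called (0.646% higher, 0.0808% lower). Those 2 were Stat2 and Ifnar1, both lower with UC2288. Stat2 averaged 143 ± 55.5 CPM (SD, n = 5) with UC2288 and 262 ± 21.0 CPM (SD, n = 4) with vehicle, a log2 fold change of -0.80 ± 0.25 (edgeR adjusted p = 0.101). It passed only in the fit without UC2288 Cre+ replicate 1 (-0.92, adjusted p = 0.0390), and without the library that stood apart it was -0.65 (adjusted p = 0.198). Ifnar1 had 80.1, 46.5, 43.7, 59.9 and 57.1 CPM with UC2288, and its log2 fold change was -0.70 ± 0.33 (edgeR adjusted p = 0.271; -0.63 and 0.391 without that library).

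Irf7 did not share that direction, at 0.52 ± 0.26 (edgeR adjusted p = 0.309; 0.69 and 0.169 without the library that stood apart), nor did Irf9, at 0.34 ± 0.25 (edgeR adjusted p = 0.508). The count of all called genes in this comparison ranged from 1 to 266 over the fits that left out 1 library, against 36 with all, so its background is unsteady. Among Cre- pups UC2288 gave no call among the 8 genes by edgeR or DESeq2, none had an unadjusted p below 0.05, and 0.0202% of all genes were called. Irf3 had 73.8, 51.7 and 61.6 CPM in UC2288 Cre- libraries against 42, 23.4, 44.8, 34.6 and 46.6 CPM in vehicle tamoxifen Cre- libraries. Its log2 fold change of 0.61 ± 0.37 did not pass (edgeR adjusted p = 0.593). On column totals, which CPM use, the median log2 fold change of all genes was 0.12. Whether the UC2288 effect differed between Cre+ and Cre- pups was tested directly, again with no call among the 8 by either tool, none with an unadjusted p below 0.05, and 1.94% of all genes called (0.949% higher, 0.989% lower). There Stat2 had -1.03 ± 0.66 (edgeR adjusted p = 0.368) and Irf7 1.18 ± 1.48 (edgeR adjusted p = 0.676).

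Putting the 5 groups in order, Irf7 averaged 325 ± 124 CPM (SD, n = 5) in UC2288 Cre+ and 237 ± 63.9 CPM (SD, n = 4) in vehicle tamoxifen Cre+ libraries, neighbours that did not differ past the threshold. The other 3 groups averaged between 1.54 and 3.03 CPM on 1 to 3 counts each and cannot be ordered. For Stat2 the order began with vehicle tamoxifen Cre+ and UC2288 Cre+, whose difference did not pass either (edgeR adjusted p = 0.101). UC2288 Cre-, oil Cre+ and tamoxifen Cre- followed at 16.8, 14.3 and 14.2 CPM, and among these last 3 the pairs that were tested gave no call. Socs1 averaged 10.2 ± 3.48 CPM (SD, n = 5) in UC2288 Cre+ and 23.7 ± 7.32 CPM (SD, n = 4) in vehicle tamoxifen Cre+ libraries, and without the filter that difference did not pass either (-1.20 ± 0.67, edgeR adjusted p = 0.661).

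Cell markers moved along with these genes. Summed monocyte markers (6 genes) were 87.3 to 288 CPM in UC2288 Cre+ and 110 to 278 CPM in vehicle tamoxifen Cre+ libraries, against at most 59.9 CPM in the other groups. Plac8 made up most of these sums in the high groups, at 81.1 to 288 CPM in UC2288 Cre+ and 89.6 to 274 CPM in vehicle tamoxifen Cre+ libraries, against at most 23.4 CPM in the other groups. Fn1 was detected in both high groups, at up to 59.9 and 27.0 CPM, and in none of the others. Of the defining monocyte genes, Ccr2 had at most 9.32 CPM in any library. Ly6c2 was at 0 in both high groups and in the oil Cre+ and tamoxifen Cre- groups, and was detected in UC2288 Cre- libraries alone. Chil3 held 7 counts in UC2288 Cre- libraries (up to 32.3 CPM), 1 in UC2288 Cre+ libraries and 0 in each vehicle group. Neutrophil marker sums reached 645.5 CPM in UC2288 Cre- libraries and were at 0 in the other groups. Summed microglia markers (8 genes) were 6652 to 16628 CPM in UC2288 Cre+ against 14127 to 17203 CPM in UC2288 Cre- libraries. They were 6619 to 7132 CPM in vehicle tamoxifen Cre+ libraries. Tamoxifen Cre- libraries had 13772 to 15575 CPM and oil Cre+ libraries 14978 to 18571 CPM. These sums include Cx3cr1, of which a Cre allele removes a copy. Cx3cr1 averaged 1013 CPM in UC2288 Cre+ and 3043 CPM in UC2288 Cre- libraries. Its vehicle means were 991 CPM (tamoxifen Cre+), 2541 CPM (tamoxifen Cre-) and 1410 CPM (oil Cre+). Border macrophage markers were lower in the vehicle tamoxifen Cre+ libraries, at 82.7 to 185 CPM against 271 CPM or more in the tamoxifen Cre- and oil groups, and at 105 to 306 CPM in UC2288 Cre+ against 304 to 597 CPM in UC2288 Cre- libraries. Summed astrocyte markers (3 of 4 listed genes in the table) were 15.0 to 136 CPM in UC2288 Cre+, 63.0 to 101 CPM in vehicle tamoxifen Cre+, 23.7 to 78.4 CPM in UC2288 Cre-, 18.7 to 51.9 CPM in tamoxifen Cre- and 29.0 to 35.7 CPM in oil Cre+ libraries. The part of these shifts in the results was not tested, and in bulk RNA fewer cells of a type and less RNA per cell cannot be told apart. Cdkn1a, the target named for UC2288, had 499 to 845 CPM in UC2288 Cre+, 620 to 1048 CPM in vehicle tamoxifen Cre+, and 60 to 136 CPM in tamoxifen Cre- libraries.

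The wider pathway gave the setting for these members. Of 36 listed genes of Jak, Stat, Irf and feedback function, 22 passed the filter, which keeps genes that are high in 1 group. Between vehicle tamoxifen Cre+ and Cre- pups 8 of the 22 were called higher and 1 lower. Of all tested genes, 14.3% were called higher and 12.9% lower. The median log2 fold change was 0.37 beside -0.01 for all genes. The largest change was that of Usp18, which blocks the Ifnar2 chain, at 3.96 ± 0.53 (98.9 CPM in Cre+ against 4.93 CPM in Cre- libraries). The adaptor Myd88 was at 1.39 ± 0.36, and the Ifnar1-bound kinase Tyk2 at 1.19 ± 0.42. The gene that fell was Ifngr1, the interferon gamma receptor chain (-0.93 ± 0.19), named after its value was seen. In UC2288 pups Usp18 was higher and Irf2bpl was lower in Cre+ than in Cre- libraries.

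Target genes of interferon were called higher in 33 of 33 tested members of a list of 35 in all 3 comparisons of tamoxifen Cre+ pups with Cre- or oil pups in this table. Of all tested genes, 14.3% were called higher against vehicle Cre- pups, 16.1% against oil and 3.51% in the UC2288 comparison. This list and the others were chosen with earlier results of these data known, so the counts are a description. The filter keeps genes that are high in 1 group, so 33 of 33 is no share of the whole list, and the comparisons share libraries. Ifi211, a DNA-sensing family member, had 155 counts in vehicle tamoxifen Cre+ and 0 in tamoxifen Cre- libraries, at least 56.0-fold higher with 3 counts assumed over the Cre- group. Of 11 tested genes linked to interferon gamma and Irf1, 11 were called higher in vehicle tamoxifen Cre+ against Cre- pups and 8 against oil, and 8 in UC2288 Cre+ against UC2288 Cre- pups. Of 21 listed interferon genes, only Ifnb1 had a row in this table, with 1 count in each of 2 UC2288 Cre+ libraries. The others had no row, and the multi-mapping rule is not given, so their levels are not known here.

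The postnatal table asks the same question for Littman Cre+ against Cre- pups, all given tamoxifen, without vehicle. Only Stat2 was called among 7 tested genes, in a comparison in which 7.8% of 7076 tested genes were called, 4.56% higher and 3.24% lower. Stat2 had 47.6, 71.8, 53.2, 44.4 and 89.4 CPM in Cre+ libraries against 26.4, 30.6, 46, 45.2 and 20.5 CPM in Cre- libraries. The groups overlapped slightly, and the log2 fold change was 0.88 ± 0.24 (edgeR adjusted p = 0.0145). It was not called without Cre+ replicate 5 (0.69, adjusted p = 0.107) or without Cre- replicate 5 (0.75, adjusted p = 0.0559).

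Irf7 was not tested here, with 24.9, 10.6, 7.26, 15.5 and 16 CPM (3 to 11 counts) in Cre+ libraries against 2.64, 5.09, 5.11, 0 and 11.7 CPM (at most 4 counts) in Cre- libraries. The Cre+ values were mostly higher but overlapped, and without the filter the log2 fold change was 1.63 ± 0.55 with an edgeR adjusted p of 0.0813. Irf9 had 89.4 to 152 CPM in Cre+ and 76.4 to 120 CPM in Cre- libraries, 0.38 ± 0.17 on the log2 scale (edgeR adjusted p = 0.179). Irf1 had 57.7 to 91.9 CPM in Cre+ and 43.3 to 61.5 CPM in Cre- libraries, 0.48 ± 0.20 (edgeR adjusted p = 0.143). Ifnar1, Ifnar2, Irf3 and Irf5 had log2 fold changes of 0.17 ± 0.20, 0.06 ± 0.15, -0.13 ± 0.19 and -0.09 ± 0.14. Monocyte marker sums were 23.9 to 102 CPM in Cre+ and 2.56 to 50.9 CPM in Cre- libraries. Plac8 (84 counts in Cre+, 15 in Cre-) and Fn1 (38 and 1) were the higher ones. Ccr2 (13 and 17), Ly6c2 (0 and 7) and Chil3 (0 and 1) were not. Border macrophage markers (4 of 6 listed genes in the table) were not lower in Cre+ libraries here. They summed to 106 to 289 CPM (median 166 CPM) in Cre+ and 87.8 to 128 CPM (median 109 CPM) in Cre- libraries. Summed microglia markers were 15447 to 20576 CPM in Cre+ against 23472 to 26887 CPM in Cre- libraries, without overlap. That sum includes Cx3cr1, of which a Cre allele removes a copy, at a mean of 1406 CPM in Cre+ and 3905 CPM in Cre- libraries. The part of these markers in the values was not tested. Beside the single call here, 16 of 20 tested interferon target genes, from the list of 35, were called higher. Among all tested genes 4.56% were called higher, and the limits given above for this list hold.

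**Figure D4:**
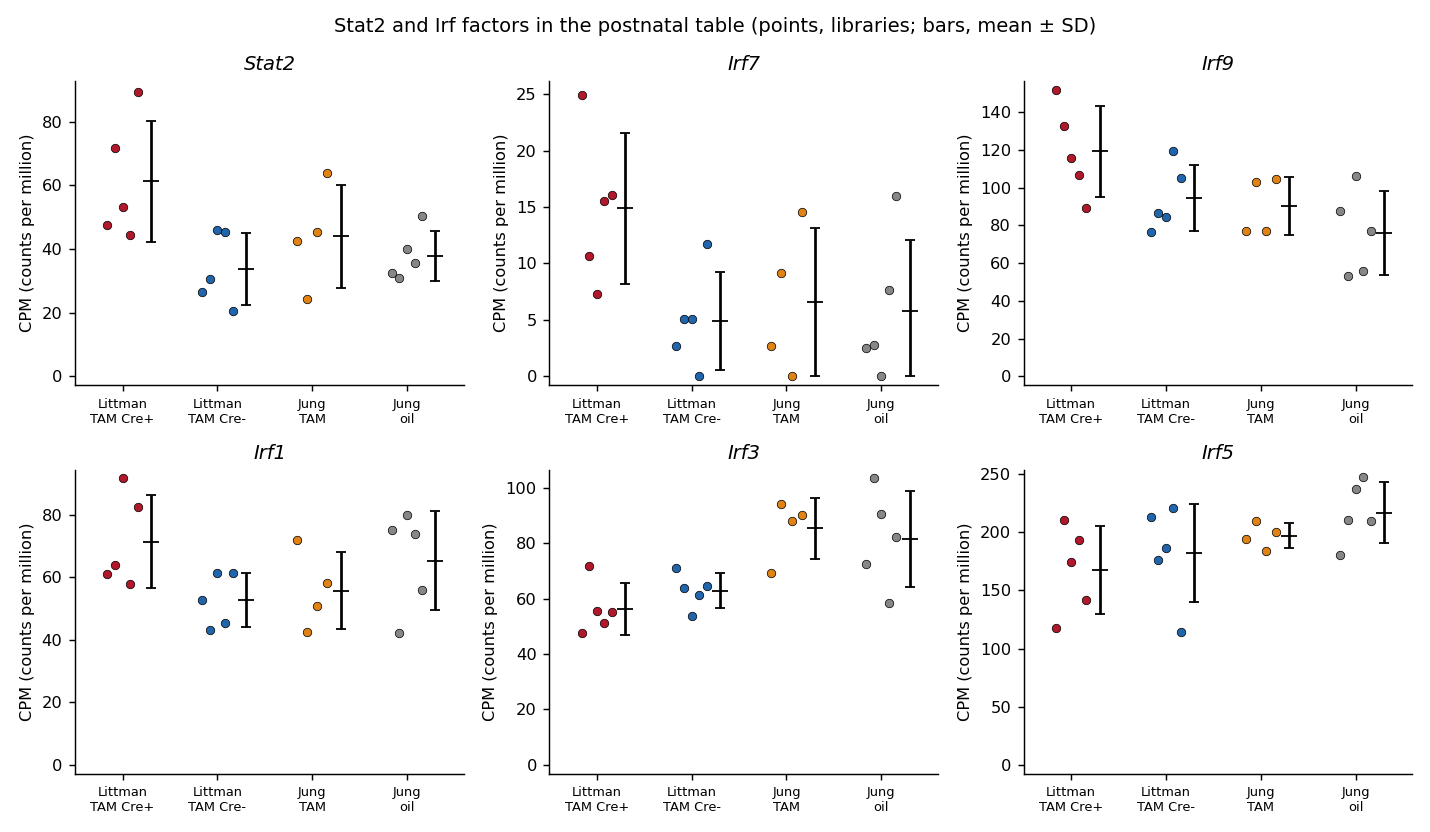
CPM of Stat2, Irf7, Irf9, Irf1, Irf3 and Irf5 by library in the 4 postnatal groups; points are libraries and bars the mean and SD, drawn no lower than 0. Stat2 runs from 44.4 to 89.4 CPM in Littman Cre+ libraries and from 20.5 to 46 CPM in Cre- libraries, and the 2 Jung groups overlap in every panel.

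In Jung pups, tamoxifen against oil gave no call among the 7 tested genes by edgeR or DESeq2, none had an unadjusted p below 0.05, and 0.0848% of all genes were called. Stat2 had 42.6, 24.3, 45.3 and 63.9 CPM with tamoxifen against 32.5, 30.8, 39.9, 35.7 and 50.5 CPM with oil, 0.22 ± 0.28 on the log2 scale. Irf7 had at most 5 counts with tamoxifen and at most 6 with oil. The largest log2 fold change among the 7 was 0.24 ± 0.20, for Irf9.

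The difference between the Littman Cre effect and the Jung tamoxifen effect gave no call among the 7 genes by either tool, 1 unadjusted p below 0.05 (Irf1), and 0.353% of all genes called (0.254% higher, 0.0989% lower). Stat2 had a difference of 0.66 ± 0.37 with a 95% interval of -0.07 to 1.38, and Irf1 one of 0.70 ± 0.29 (edgeR adjusted p = 0.382). The Littman effect compares genotypes that both received tamoxifen, whereas the Jung effect compares tamoxifen with oil. Their difference therefore does not test whether the lines differ in the same Stat2 change. Set directly against each other, Littman Cre+ and Jung tamoxifen pups gave no call among the 7 genes by edgeR or DESeq2, 3 unadjusted p-values below 0.05, and 6.74% of all genes called (3.82% higher, 2.93% lower). These groups also differ in line and in the Rosa26YFP allele. Irf3 came nearest, with 47.6, 71.8, 55.6, 51.1 and 55 CPM in Littman Cre+ libraries against 69.1, 94.1, 88 and 90 CPM in Jung tamoxifen libraries. Its log2 fold change of -0.56 ± 0.19 missed the threshold (edgeR adjusted p = 0.0627) and passed with column totals as the scale (adjusted p = 0.0402).

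Among BLZ-titled adults, Littman mice that received oil and no tamoxifen had high Irf7 and Stat2; their treatment labels also give BLZ945. Oil Littman against oil Jung libraries gave 2 calls among 8 tested genes, both higher, in a comparison in which 9.12% of 5163 tested genes were called, 6.72% higher and 2.4% lower. That is 471 genes, and 268 without Jung oil replicate 2, 277 without Littman oil replicate 1 and 279 without Littman oil replicate 3. Irf7 had 120, 105 and 97.3 CPM in Littman oil libraries against 10.6, 8.9, 0 and 5.24 CPM in Jung oil libraries. The groups were far apart, with a log2 fold change of 4.20 ± 0.48, 18.4-fold (edgeR adjusted p = 2.61e-07). Stat2 had 129, 122 and 88.5 CPM in Littman oil libraries against 10.6, 31.2, 21 and 83.8 CPM in Jung oil libraries, 1 of which came close to the Littman range. Its log2 fold change was 1.86 ± 0.41 (edgeR adjusted p = 0.00252), and both genes were called in each fit without 1 library. Without that Jung library, replicate 4, the Stat2 change was 2.55, against a lowest value of 1.58 over these fits.

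Irf9 had 163, 166 and 88.5 CPM in Littman oil against 158, 66.8, 57.7 and 78.6 CPM in Jung oil libraries. The groups overlapped through 1 high Jung library, and the log2 fold change of 0.86 ± 0.31 did not pass (edgeR adjusted p = 0.0760). Without that Jung library, replicate 1, it was 1.29 (adjusted p = 0.00443), and without Littman oil replicate 3 it was 1.10 (adjusted p = 0.0412). Irf1, by contrast, was at -0.00 ± 0.29, and Ifnar1, Ifnar2, Irf3 and Irf5 at 0.28 ± 0.37, 0.39 ± 0.30, 0.17 ± 0.31 and -0.30 ± 0.23. Irf5 had 193, 236 and 181 CPM in Littman oil libraries against 343, 285, 304 and 241 CPM in Jung oil libraries, and the difference did not pass (edgeR adjusted p = 0.483). On column totals, which CPM use, the median log2 fold change of all genes was also -0.30. Socs1, untested, had 21.5, 35 and 26.5 CPM in Littman oil libraries against 21.1, 13.4, 10.5 and 21 CPM in Jung oil libraries. Line, the Rosa26YFP allele and, per the treatment labels, BLZ945 cannot be told apart in this comparison. Monocyte marker sums were 34.3 to 155 CPM in Littman oil and 5.28 to 15.7 CPM in Jung oil libraries. In Littman oil libraries Chil3 held 30 counts (0 to 133 CPM) and Plac8 22 (0 to 65.6 CPM). Ccr2 held 5, Ly6c2 2 and Fn1 1. In Jung oil libraries Plac8 held 5 counts and Ccr2 3. Summed microglia markers were 15093 to 16078 CPM in Littman oil against 18514 to 21279 CPM in Jung oil libraries. Neutrophil markers were at 0 in every Jung oil library and summed to 2845 CPM in 1 Littman oil library. The part of these markers in the result was not tested. Of interferon target genes, 27 of 29 tested (35 listed) were called higher, as were 3 of 9 tested genes linked to interferon gamma. The limits given above for these lists hold here too. Of the signalling list Usp18 was higher and Ptpn6 lower. Without TMM factors the median of all genes was -0.30, against -0.05 with them, and Irf7 and Stat2 were called either way.

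Within BLZ-titled Littman mice, tamoxifen was compared with oil. Irf7 had 103, 106, 97.9 and 106 CPM with tamoxifen against 120, 105 and 97.3 CPM with oil, and its log2 fold change was -0.10 ± 0.29 with a 95% interval of -0.67 to 0.47. Stat2 had 129, 178, 97.9 and 110 CPM with tamoxifen against 129, 122 and 88.5 CPM with oil, 0.15 ± 0.33 on the log2 scale. None of the 8 tested genes was called by edgeR or DESeq2, none had an unadjusted p below 0.05, and 0.0581% of all genes were called. The largest change was that of Ifnar1, with 90.1, 55.1, 35.6 and 17.6 CPM with tamoxifen against 103, 65.6 and 53.1 CPM with oil (-0.61 ± 0.38, edgeR adjusted p = 0.778). In these libraries Cdkn1a had 648.01 to 806 CPM with tamoxifen against 78.7 to 146 CPM with oil, every tamoxifen library above every oil library. Ifnb1 had 10 counts in 1 Littman tamoxifen library and 2 in another, and none in the other 13 libraries of the table. Summed microglia markers were 8460 to 15300 CPM with tamoxifen against 15093 to 16078 CPM with oil. Plasmacytoid dendritic cell markers (3 of 5 listed genes in the table) summed to 25.7 to 79.3 CPM against 17.7 to 21.9 CPM. Monocyte marker sums were 16.9 to 238 CPM against 34.3 to 155 CPM. Neutrophil marker sums reached 2415 CPM and 2845 CPM. The part of these markers in the values was not tested.

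In BLZ-titled Jung mice tamoxifen gave no call among 8 genes by edgeR or DESeq2, no unadjusted p below 0.05 among them, and 0% called among all genes, of which 287 had an unadjusted p below 0.05. The difference between the 2 lines' tamoxifen effects likewise gave no call among the 8 by either tool, none with an unadjusted p below 0.05, and 0% of all genes by edgeR (1 by DESeq2; 417 had an unadjusted p below 0.05). Irf7 there had 0.09 ± 0.81 and Stat2 0.36 ± 0.60, with 95% intervals of -1.49 to 1.66 and -0.82 to 1.55.

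**Figure D5:**
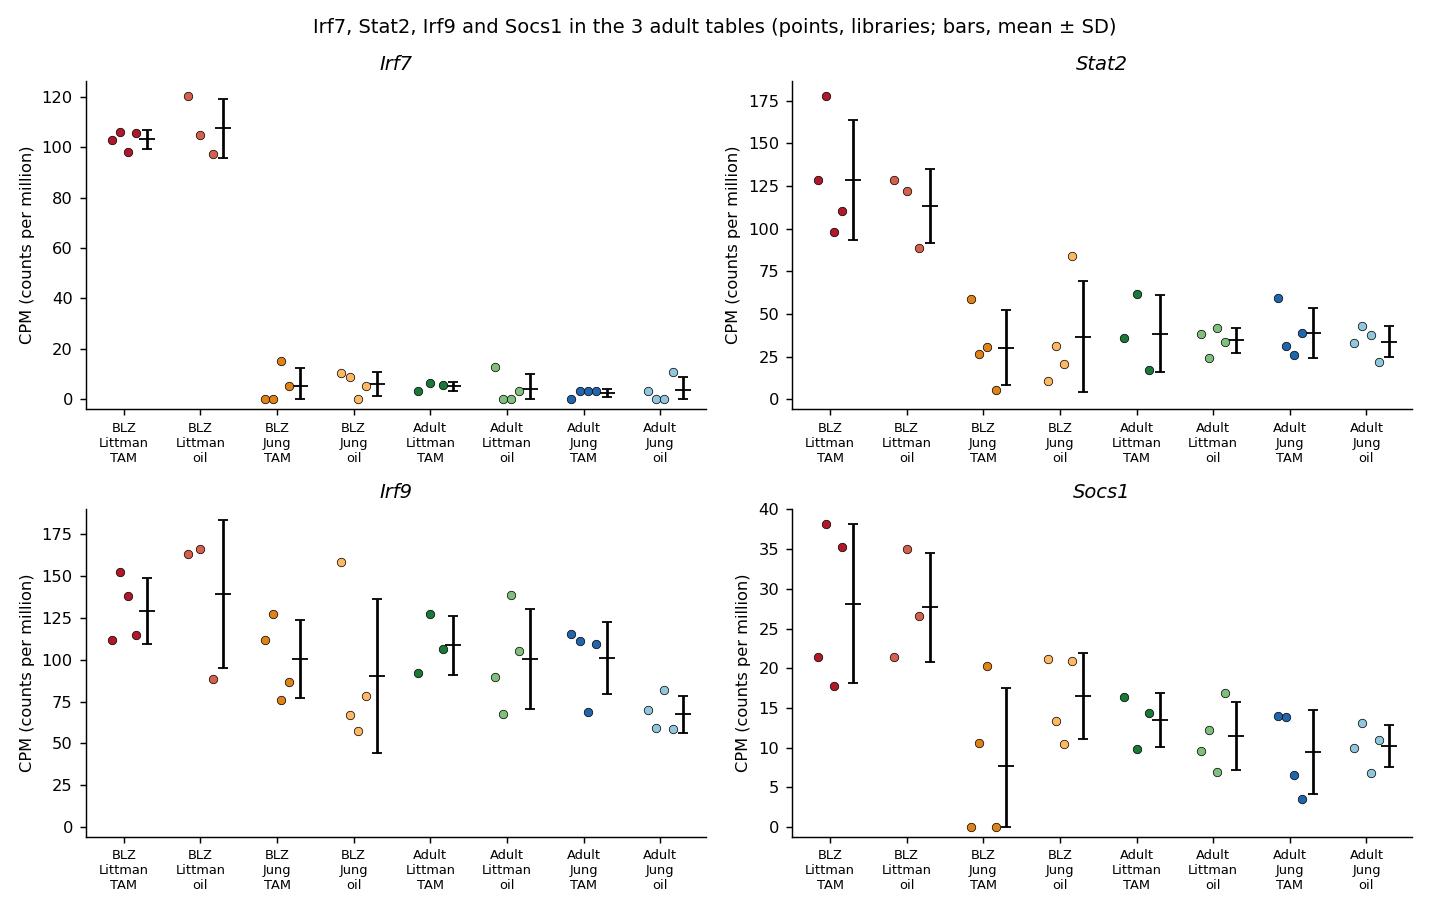
CPM of Irf7, Stat2, Irf9 and Socs1 by library in the 8 adult groups, which come from 3 separately counted tables; points are libraries and bars the mean and SD, drawn no lower than 0. Irf7 lies between 97.3 and 120 CPM in the 7 BLZ-titled Littman libraries and at 15.2 CPM or less in the other 23.

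Adult mice outside the BLZ-titled table showed low Irf7 and no calls. Littman adults had 3.28, 6.52 and 5.75 CPM of Irf7 with tamoxifen against 12.8, 0, 0 and 3.39 CPM with oil, and 36.1, 62 and 17.2 CPM of Stat2 with tamoxifen against 38.4, 24.5, 41.6 and 33.9 CPM with oil. None of 7 tested genes was called by edgeR or DESeq2, none had an unadjusted p below 0.05, and 0.0181% of all genes were called. Jung adults had no call among 7 genes by either tool, 1 unadjusted p below 0.05, and 0% called among all genes, of which 113 had an unadjusted p below 0.05. That 1 gene was Irf9, with 115, 111, 68.9 and 109 CPM with tamoxifen against 69.8, 59.3, 82.1 and 58.4 CPM with oil. Of the tamoxifen libraries 3 were above all oil libraries, and the log2 fold change of 0.61 ± 0.24 did not pass (edgeR adjusted p = 1.00). Stat2 in Jung adults was 0.21 ± 0.34.

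Across the 17 comparisons Stat2 was called in 5, Irf7 in 4 of the 11 in which it was tested, Irf9 in 3 and Irf1 in 1, whereas Ifnar1, Ifnar2, Irf3 and Irf5 were called in none. Several comparisons share libraries, so these are not independent counts. Over all 70 libraries, Ifnar2 ranged from 46.6 to 208 CPM, Irf3 from 13.8 to 147 CPM and Irf5 from 77.5 to 362 CPM. The adjusted p-values of these 3 genes went no lower than 0.438 for Ifnar2, 0.0627 for Irf3 and 0.483 for Irf5.

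Genes whose level followed each member most closely were sought among 3885 genes tested in all 5 tables, by Pearson's r of log2 CPM over the 70 libraries after centring each table on its own mean; the libraries share tables and treatments, so r is a description. Stat2 was most like Parp14 (0.879), Tor3a (0.879) and Trim30d (0.874). Irf9 was close to Rnf213 (0.731) and Phf11d (0.726). For Irf1 the closest genes were Gcnt1 (0.554), Thoc2 (0.551) and Herc6 (0.512), for Irf5 they were Syngr2 (0.569), Cops7a (0.559) and Cd14 (0.548), and for Ifnar1 they were Acbd3 (0.610), Btbd7 (0.569) and Srrt (0.541). No gene reached 0.5 with Ifnar2 or Irf3, and Irf7 and Socs1 were not tested in all tables.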

How the data were processed

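The deposited tables hold whole-number counts per gene and library; the authors gave no normalised values. Per the submitters' processing notes, UMI-tools, Trim Galore, HISAT2 and featureCounts were used on GRCm38; their versions, the annotation, the strand setting and the multi-mapping rule are not given. Read 1 carried the molecular identifier, per the labels' protocols; no source states whether the counts are of molecules or reads.

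The 9 genes, the pathway lists and the tests were chosen with earlier results of these data known. Every count column was matched to a sample, and groups came from the titles. Each table was fitted alone in edgeR 4.0.16 (R 4.3.3): TMM, filterByExpr by group, the quasi-likelihood test with every group in the fit, and calls at a Benjamini-Hochberg adjusted p below 0.05 over the 4953 to 7076 tested genes. The fit was tested on simulated counts with known changes; in most tables the share of false calls was above the nominal rate, most in the vehicle and UC2288 table, so calls near the threshold are less certain than their adjusted p states. CPM use column totals; log2 fold changes use TMM-scaled totals. Where a group held 1 to 3 counts in all, pooled counts were divided and an exact 95% interval attached; at 0, a bound assumes 3 counts over the group. Alternatives were DESeq2 1.42.0, RLE factors, column totals, no filter, contrast groups alone, a replicate block, Xist detection as a covariate in adult and BLZ-titled Littman mice, and each library left out. Same-numbered replicates were correlated over 0.1 in every pair in 0 of 14 comparisons, a rule that only full pairing would meet. Single correlations ran from -0.47 to 0.41, so pairing of some libraries was not settled. No pair of libraries of a group agreed within sampling noise (113 pairs, lowest chi-square per degree of freedom 1.09). All 9 genes and Cx3cr1 and Cdkn1a are named; of each pathway list the text gives a selection of the 4 called genes with the largest change, and 1 gene of these lists is not reported here by name. Promoters and gene positions are from RefSeq and GENCODE M21.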

Additional observations from a re-analysis of the deposited data

Results flagged for a closer look

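In groups of 4 to 10 libraries, the CPM values of the 9 genes were examined for a lowest or highest library standing apart, and 7 sets of values had one, 5.56% of those examined, where chance alone gives about 5%. Ifnar1 in BLZ-titled Jung oil replicate 4 was 110 CPM (21 counts) against 57.7 to 63.3 CPM in the other 3 libraries, and Irf1 in that same library was 94.3 CPM (18 counts) against 68.2 to 71.2 CPM. Irf9 in adult Jung tamoxifen replicate 3 was 68.9 CPM (21 counts) against 109 to 115 CPM. The other 4 rest on 5 counts or fewer: Irf7 at 10.2 CPM in vehicle oil Cre+ replicate 3 against 0 CPM in the other libraries, Irf7 at 0 CPM in adult Jung tamoxifen replicate 1 against 3.28 to 3.52 CPM, Socs1 at 14.6 CPM in postnatal Littman Cre- replicate 5 against 2.64 to 5.32 CPM, and Socs1 at 0 CPM in vehicle tamoxifen Cre- replicate 3 against 4.66 to 6.00 CPM.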

How the results depend on the processing

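Irf7 kept its 4 calls and Stat2 its 5 with column totals, RLE factors, DESeq2, no filter, the groups alone and the replicate block. Leaving out a library lost Stat2 in the postnatal Littman comparison alone, and no called value changed sign. The Xist covariate was run only in the 2 Littman adult comparisons of tamoxifen with oil, which had no member called. Members called when 1 library was left out ranged from 3 to 4 for vehicle tamoxifen Cre+ against Cre-, 2 to 3 against oil, 2 to 3 for UC2288 Cre+ against Cre-, 2 to 3 for BLZ-titled Littman oil against Jung oil, and 0 to 1 for postnatal Littman Cre+ against Cre-, for Littman Cre+ against Jung tamoxifen and for UC2288 against vehicle in Cre+ pups; it was 0 in the other 10 comparisons. With column totals in place of TMM, Littman Cre+ against Jung tamoxifen gave 1 member (Irf3) in place of 0.

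With the replicate number as a block, the members called were 4, 3 and 3 for the first 3 comparisons named, 2 for BLZ-titled oil, 1 for postnatal Littman and 0 in the rest. The block thus changed no call. In 17 of 52 same-numbered pairs, taken over 14 comparisons that share libraries, a library correlated best with its own number. This does not settle whether the numbers mark pairs. Counts over all genes moved with the block to 2 (Littman adults, 1 without), 1 (BLZ-titled Littman, 3 without), 11 (postnatal Jung, 6 without) and 58 (difference of UC2288 effects, 96 without).

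Counts over all genes moved more than 1.5 times elsewhere too: for UC2288 against vehicle in Cre+ pups they were 59 with DESeq2, 132 without a filter and 2 with the 2 groups alone, against 36, and for UC2288 Cre+ against Cre- they were 111 with the 2 groups alone, against 198. Littman Cre+ against Jung tamoxifen gave 314 with DESeq2, against 477. The difference of UC2288 effects gave 33 with its groups alone and 179 without a filter, against 96, and between 1 and 533 without 1 library. Without 1 library, counts over all genes ran from 0 to 45 for UC2288 in Cre- pups (45 without UC2288 Cre- replicate 3, against 1), 22 to 76 for the postnatal difference (76 without Littman Cre+ replicate 2, against 25), 296 to 569 for Littman Cre+ against Jung tamoxifen (296 without Littman Cre+ replicate 1 and 303 without Jung tamoxifen replicate 3, against 477), 0 to 7 for adult Littman, 1 to 13 for BLZ-titled Littman, 2 to 8 for postnatal Jung, and 0 to 5 for oil Cre+ against tamoxifen Cre-. UC2288 against vehicle also gave 15 with column totals and 21 with RLE factors. Without the filter there were 44 calls for BLZ-titled Littman mice (3 with it), 10 for the difference of BLZ-titled effects (0), 10 for adult Littman (1), 6 for adult Jung (0), 36 for UC2288 in Cre- pups (1), 15 for oil Cre+ against tamoxifen Cre- (0), 15 for postnatal Jung (6) and 55 for the postnatal difference (25). Other settings gave 1 to 7 calls for BLZ-titled Littman, 0 to 2 for adult Littman, 0 to 4 for oil Cre+ against tamoxifen Cre- and 12 for postnatal Jung with its groups alone. Without TMM the share of calls that were higher was 72.3% for vehicle Cre+ against Cre- (52.7% with), 37.0% for BLZ-titled oil (73.7%), 46.8% for postnatal Littman (58.5%), 44.9% for Littman Cre+ against Jung tamoxifen (56.6%), 63.7% for tamoxifen against oil (51.3%), 56.7% for the postnatal difference (72%) and 17.9% for the difference of UC2288 effects (49.0%). The median of all genes without TMM was 0.21, -0.30 and -0.04 in the first 3 of these. At these depths a member with under 10 counts a library, such as Socs1, or Irf7 where it is low, can show large differences only.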

Other observations

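Irf7 was not tested in all 5 tables, so its closest genes were sought after the data were seen in the 2 tables that tested it. In the vehicle and UC2288 table (21 libraries, 4953 genes) they were Ifit3b, Ifi206 and Ifi211, with Pearson's r of 0.981, 0.980 and 0.979, and in the BLZ-titled table (15 libraries, 5163 genes) Slfn5, Rtp4 and Ccl12, with r of 0.978, 0.974 and 0.971. Within a table the libraries fall into a high and a low set, so r describes that split.

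In BLZ-titled Littman mice, Xist had counts in 3 of 4 tamoxifen libraries and in none of the 3 oil libraries; the Irf7 values of all 7 libraries lay between 97.3 and 120 CPM, and a fit with Xist detection as a covariate called none of the 8 genes.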
